A study of Mus musculus with 8 samples.

Results

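Colon organoids are hollow epithelial structures that grow in a gel matrix from the crypts of the colon. The 8 libraries described here came from organoids of wild-type (WT) mice. Each received fecal supernatant at 4 mg/mL, the microbe-free liquid of mouse stool. In FS_CTR it came from healthy mice, and in FS_DSS from mice given dextran sulfate sodium, which damages the lining of the colon. The labels give a treatment time of 5 days and number the 4 libraries of each condition 1 to 4. The organoids shared their genotype, a growth medium with EGF, R-spondin, noggin and Wnt-3a, and 1 passage before use, and the stool pellets were pooled before supernatants were made. The comparison set replicates 1 and 2 of both conditions (4 libraries) against replicates 3 and 4 of both conditions (4 libraries), which together are all 8 libraries of the series. This division was chosen from the counts themselves, by how the libraries separated in them, and no source used here says what the replicate numbers stand for. The differences between the sets are therefore a description without a test. Condition was kept as a second term, and only the comparison of FS_DSS with FS_CTR, which the division did not use, was tested. Neither the labels nor the methods say whether the libraries came from separate cultures or animals, so *p* values measure the spread between these libraries, which may be technical.

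The colon epithelium renews itself from stem cells at the crypt base. Wnt signals keep these cells dividing, and their daughters become absorptive colonocytes or secretory cells, the latter including mucus-making goblet cells and hormone-making enteroendocrine cells. Organoid cultures hold all these stages at once. Cells short of amino acids, or under other stresses, make the transcription factor ATF4, which switches on amino acid synthesis and transport genes and the stress factor *Ddit3* (CHOP).

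Library totals were between 18968416 and 27035243 counts, and 12729 of 29234 gene symbols passed the filter on low counts. Levels below are CPM, library-size-scaled counts, adjusted by TMM, which corrects for differences in library composition. A Log2(FC) is positive where replicates 3 and 4 were higher. On the first principal component FS_CTR 3 and 4 lay at 54.7 and 64.3 and the remaining 6 libraries at -30 to -11.9. Correlations of log2 CPM with that pair were 0.929 to 0.956, and among the remaining 6 they were 0.953 to 0.985. That pair also had the smallest totals, 18968416 and 22686464 counts, against at least 26363942 elsewhere. In the same pair, the 13 protein genes of the mitochondrial genome held 38.7% and 33.3% of all counts, against 2.83% to 6.98% elsewhere. Results are therefore given for each condition apart as well. On the second component FS_CTR 1 and 2 lay at 33.9 and 29.4, FS_DSS 1 and 2 at 5.3 and -5.9, and FS_DSS 3 and 4 at -21 and -48.5, so the sets also separated within FS_DSS. *Krt8*, *Cdh1* and *Cdx2*, which mark colon epithelium, were present in all 8 libraries, at lowest 6131, 1161 and 217 CPM, while *Ptprc* of leukocytes and *Col1a1* of fibroblasts did not exceed 0.823 CPM in any.

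**Figure D1:**
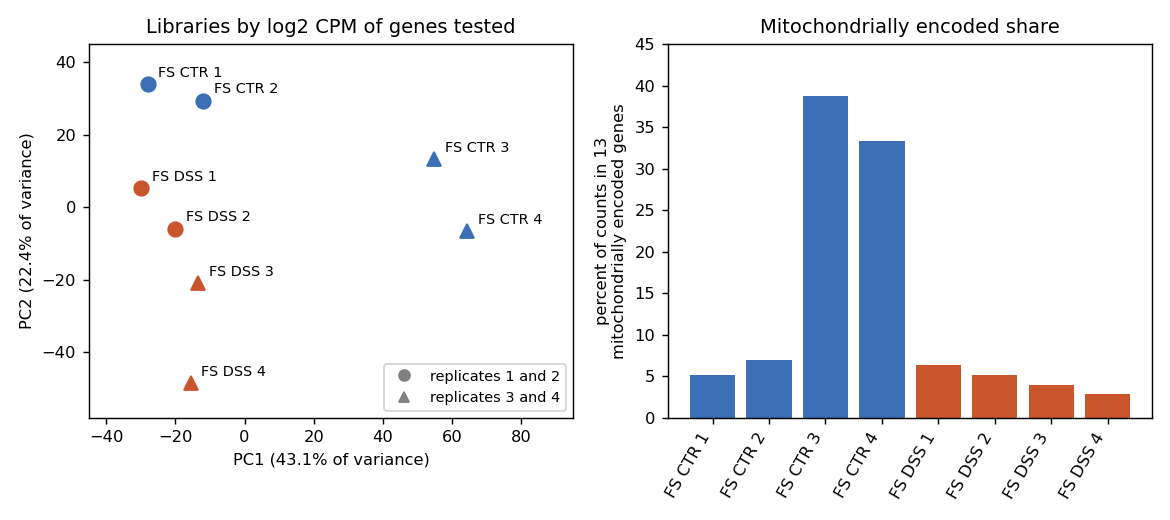
Left, the 8 libraries on the first 2 principal components of log2 CPM over the genes tested, with circles for replicates 1 and 2 and triangles for replicates 3 and 4 (blue, FS CTR; orange, FS DSS). Right, bars of the percent of each library's counts in 13 mitochondrially encoded genes, at 38.7% and 33.3% in FS_CTR 3 and 4 and at most 6.98% in the other 6 libraries.

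Replicates 3 and 4 had lower TMM CPM than replicates 1 and 2 for genes of cell division, crypt stem cells, enteroendocrine cells and cholesterol synthesis. They had higher TMM CPM for genes of the ATF4 response, several heat shock and immediate early genes, and a few keratins. Among all genes tested, 913 (7.17%) were higher in all 4 libraries of replicates 3 and 4 than in all 4 of replicates 1 and 2, and 1034 (8.12%) were lower. With a Log2(FC) of at least 1 in size as well, 217 genes (1.7%) were higher and 205 (1.61%) lower. These calls had a median log2 difference of 1.47 under FS_CTR and 1.13 under FS_DSS for the higher genes, and of -1.39 and -1.14 for the lower ones. On library totals alone, without TMM, the calls were 64 higher and 538 lower, and the median Log2(FC) of all genes moved to -0.39, so a list's difference is best read relative to that of all genes. Without FS_CTR 3 and 4 (4 libraries against 2), a choice made after seeing the data, the calls were 363 higher and 270 lower. No overlap is easier to meet with fewer libraries, so these counts are not like for like with 217 and 205. Within FS_DSS alone, 3342 genes (26.3%) were higher and 3514 (27.6%) lower in replicates 3 and 4 without overlap of 2 against 2. The threshold lay between *Sag* (Log2(FC) of 1.00, called) and *Nes* (1.00, not called) on the higher side, and between *Ncaph* (-1.005, called) and *Xylb* (-0.995, not called) on the lower side. Replicates 3 and 4 lay above 1 and 2 under both supernatants for 1581 genes and below under both for 1754, while 852 genes were above under FS_CTR and below under FS_DSS and 828 were the reverse.

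**Figure D2:**
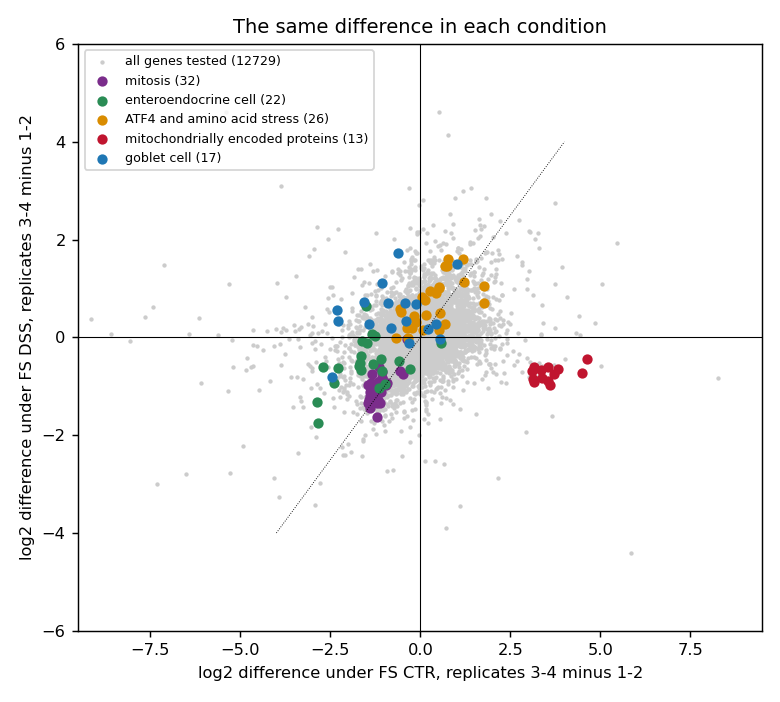
Each grey point is 1 of 12729 genes tested, with the log2 difference of replicates 3 and 4 minus 1 and 2 under FS_CTR (x axis) and under FS_DSS (y axis), and the dotted line marks equal differences. The 32 mitosis genes lie to the lower left and most of the 26 ATF4 genes above 0 on the y axis, while the 13 mitochondrially encoded genes lie above 3 on the x axis and below 0 on the y axis.

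All 32 mitosis genes had a negative Log2(FC), and 29 of them were lower in every library of replicates 3 and 4 than in every library of replicates 1 and 2, against 8.12% of all genes. Their median Log2(FC) was -1.09, against 0.00 over all genes, with -1.21 under FS_CTR and -0.99 under FS_DSS. Within FS_DSS alone 31 of the 32 were lower without overlap, against 27.6% of all genes. The promoters of 3 of these genes are shown because the members moved together. *Mki67* encodes Ki-67, the standard marker of dividing cells, *Top2a* encodes the topoisomerase that untangles chromosomes, and *Cenpf* encodes a kinetochore protein. Each stretch runs from 250 bases before to 50 after the RefSeq start on build GRCm38.p6, all on the minus strand, with 2 motifs in capitals, searched on both strands. These are the CCAAT box (CCAAT or ATTGG) and the cell cycle homology core (TTTGAA or TTCAAA), known from promoters of genes active in late cell cycle. The positions are chr7:135716330-135716629, chr11:99024140-99024439 and chr1:189688037-189688336.
Mki67: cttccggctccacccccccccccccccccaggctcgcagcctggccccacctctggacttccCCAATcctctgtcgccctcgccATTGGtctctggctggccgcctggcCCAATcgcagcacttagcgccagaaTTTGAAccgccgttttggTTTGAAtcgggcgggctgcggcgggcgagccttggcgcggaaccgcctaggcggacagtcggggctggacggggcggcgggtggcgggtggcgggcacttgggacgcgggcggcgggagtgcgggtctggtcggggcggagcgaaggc
Top2a: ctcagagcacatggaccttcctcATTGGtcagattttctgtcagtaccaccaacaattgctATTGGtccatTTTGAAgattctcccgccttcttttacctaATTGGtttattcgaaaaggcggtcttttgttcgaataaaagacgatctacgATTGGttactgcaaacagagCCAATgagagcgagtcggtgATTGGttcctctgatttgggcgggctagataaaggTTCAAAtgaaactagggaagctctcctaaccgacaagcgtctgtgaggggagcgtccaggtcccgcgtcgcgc
Cenpf: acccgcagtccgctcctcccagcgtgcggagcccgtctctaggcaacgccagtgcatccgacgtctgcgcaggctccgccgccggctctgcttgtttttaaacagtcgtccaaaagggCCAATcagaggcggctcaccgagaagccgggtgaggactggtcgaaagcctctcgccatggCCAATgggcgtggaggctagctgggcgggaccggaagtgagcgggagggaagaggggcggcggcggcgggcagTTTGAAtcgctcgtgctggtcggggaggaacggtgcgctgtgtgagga
Of the 32 mitosis genes, 28 matched a RefSeq promoter. CCAAT was found in 21 of them, against 37.9% of all 27025 promoters of this length, and TTTGAA also in 21, against 18.1%. Both were found in 18 of the 28, against 7.12% of all promoters, and matches of the 2 motifs overlapped in 0 of the 28. A match is a description of the letters, not a binding site.

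*Mki67* (chr7:135291513-135318299, GRCm39) had 176, 142, 73.99 and 47.7 CPM in FS_CTR replicates 1 to 4 and 138, 102, 65.1 and 29.05 CPM in FS_DSS replicates 1 to 4. The lowest of the 4 libraries of replicates 1 and 2 lay above the highest of replicates 3 and 4, and the means were 139.5 ± 30.3 and 53.95 ± 19.9 CPM (SD, n = 4), a Log2(FC) of -1.37. *Top2a* (chr11:98883769-98915062) had 124, 104, 49.3 and 40.1 CPM in FS_CTR 1 to 4 and 94.2, 80.02, 50.98 and 22.8 CPM in FS_DSS 1 to 4, with a Log2(FC) of -1.30. *Cenpf* had 26.95, 24.6, 9.88 and 8.78 CPM in FS_CTR and 23.6, 15.9, 11.2 and 5.13 CPM in FS_DSS. For all 3 genes FS_DSS 4 was the lowest library, and the difference was of similar size under both supernatants, with log2 differences of -1.41 under FS_CTR and -1.44 under FS_DSS for *Mki67*. *Bub1*, a kinase of the spindle checkpoint, had the most negative Log2(FC) of the list, -1.38, with 5.86, 3.45, 1.65 and 2.21 CPM under FS_CTR and 3.76, 6.203, 2.76 and 0.807 CPM under FS_DSS. The 3 members that overlapped between the sets were *Bub3*, *Aurkb* and *Cenpa*, with Log2(FC) of -0.19, -1.08 and -0.59.

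The DNA replication genes followed in the same direction with smaller differences. All 38 had a negative Log2(FC), and 20 were lower without overlap, against 8.12% of all genes. The list's median was -0.70 (-0.66 under FS_CTR and -0.68 under FS_DSS). *Uhrf1*, which carries DNA methylation through replication, had 74.8, 66.2, 43.9 and 31.1 CPM in FS_CTR 1 to 4 and 59.3, 57.3, 34.2 and 14.98 CPM in FS_DSS 1 to 4. *Rrm2*, the ribonucleotide reductase subunit that supplies deoxynucleotides, had 31.4, 34.98, 18.7 and 14.5 CPM in FS_CTR 1 to 4 and 32.4, 33.8, 20.6 and 9.52 CPM in FS_DSS 1 to 4. In both genes the sets did not overlap, and the Log2(FC) were -1.08 and -1.07. *Ccne2*, cyclin E2 of the entry into S phase, had 4.82, 4.66, 4.36 and 2.67 CPM under FS_CTR and 5.97, 5.38, 1.95 and 1.58 CPM under FS_DSS, so FS_CTR 3 stood close to replicates 1 and 2. The MCM helicase subunits *Mcm2* to *Mcm7* were all lower without overlap, with Log2(FC) from -0.96 (*Mcm5*) to -0.38 (*Mcm7*). Of 17 replication-dependent histone genes that passed the filter, 3 were higher and 0 lower without overlap, against 7.17% and 8.12% of all genes. The Log2(FC) was positive for 13 of the 17 and negative for 4, with medians of 0.58 under FS_CTR and 0.16 under FS_DSS. *Hist1h2bc*, a histone H2B gene, had 55.7, 69.3, 119 and 178 CPM under FS_CTR and 66.7, 95.3, 99.8 and 110.5 CPM under FS_DSS.

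Genes of crypt stem cells were lower in 8 of 19 members without overlap and higher in 0, against 8.12% and 7.17% of all genes. The list's median Log2(FC) was -0.64. In bulk samples, fewer cells of a type and less RNA per cell cannot be told apart, here and for the cell types below. *Ephb2*, a receptor that holds stem and progenitor cells at the crypt base, had 213, 179, 124 and 101 CPM in FS_CTR 1 to 4 and 236, 188, 126 and 114 CPM in FS_DSS 1 to 4. *Cdca7*, a Myc-regulated gene of stem and progenitor cells, had 59, 55.4, 31.3 and 23.9 CPM under FS_CTR and 38.01, 35.4, 26.2 and 14.7 CPM under FS_DSS. Both separated the sets, with Log2(FC) of -0.81 and -0.95. *Lgr5*, the R-spondin receptor that defines these stem cells, overlapped between the sets, at 40.2, 22.5, 16.2 and 13.5 CPM under FS_CTR and 16.2, 7.19, 10.6 and 2.13 CPM under FS_DSS, with log2 differences of -1.02 and -1.17 between the sets. *Aqp4*, a water channel, had 17.98, 8.11, 0 and 0 CPM under FS_CTR and 3.89, 4.17, 0.422 and 0.452 CPM under FS_DSS. It was listed at 0 in FS_CTR 3 and 4, so no fold is given.

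*Notum*, a secreted Wnt inhibitor that Wnt signals induce, was low throughout, with 0.729, 0.526, 0.0823 and 0.2602 CPM under FS_CTR and 0.905, 0.8205, 0.1299 and 0.161 CPM under FS_DSS, and did not overlap between the sets. Of 20 Wnt ligand and feedback genes, 3 were lower and 1 higher without overlap (median -0.07), near the 8.12% and 7.17% of all genes. *Notch1*, a receptor of the pathway that keeps progenitors undifferentiated, had 40.1, 26.7, 13.7 and 12.2 CPM in FS_CTR 1 to 4 and 27.5, 16.3, 15.1 and 12.04 CPM in FS_DSS 1 to 4. *Hes1*, its main target in the gut, had 75.8, 73.5, 50.9 and 53.2 CPM and 74.9, 76.8, 52.6 and 52.03 CPM in the same order. For both genes the sets did not overlap, and *Hes1* had nearly the same levels under either supernatant. Of 15 Notch genes 3 were lower and 0 higher without overlap, against 8.12% and 7.17% of all genes, with a median of -0.23. Among 28 Hox and regional identity genes, 5 were lower without overlap and 0 higher, against 8.12% and 7.17% of all genes. All 5 were of the HoxA cluster, *Hoxa3*, *Hoxa9*, *Hoxa10*, *Hoxa11* and *Hoxa13*, at Log2(FC) of -0.90 to -0.66. These genes set position along the gut axis, and *Cdx2*, which maintains intestinal identity, differed little (Log2(FC) 0.01).

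Enteroendocrine genes were lower in 10 of 22 members without overlap and higher in 0, against 8.12% and 7.17% of all genes. A negative Log2(FC) was seen for 21 of the 22. The median was -0.94, made of -1.50 under FS_CTR and -0.56 under FS_DSS. *Insl5* (chr4:102875069-102884039), a hormone of L cells of the colon, had 20.1, 28.5, 4.03 and 2.67 CPM in FS_CTR 1 to 4 and 27.96, 44.3, 9.58 and 11.4 CPM in FS_DSS 1 to 4. The means were 30.2 ± 10.2 CPM in replicates 1 and 2 and 6.91 ± 4.21 CPM in replicates 3 and 4 (SD, n = 4), a Log2(FC) of -2.27. *Gcg* (chr2:62304873-62313997), which encodes the precursor of GLP-1, had 53.9, 76.5, 16.6 and 8.85 CPM under FS_CTR and 57.9, 92.2, 46.3 and 31.7 CPM under FS_DSS. In both genes the sets did not overlap, and FS_CTR 3 and 4 were the lowest libraries. Without FS_CTR 3 and 4 the list's median was -0.60. *Chga*, chromogranin A of secretory granules, had 30.1, 31.7, 13 and 14.9 CPM under FS_CTR and 43.5, 42.4, 22.05 and 19.7 CPM under FS_DSS, and *Ppy*, pancreatic polypeptide, had 3.04, 3.22, 0.988 and 0.781 CPM and 4.59, 8.01, 1.396 and 2.87 CPM. *Neurog3*, the factor that commits progenitors to this lineage, was at 2.63, 2.14, 0.165 and 0.5204 CPM under FS_CTR and 0.704, 0.788, 0.6495 and 0.323 CPM under FS_DSS, so most of its difference lay within FS_CTR. The 1 member with a positive Log2(FC), *Cpe* (0.26), a carboxypeptidase of prohormone processing, overlapped between the sets.

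**Figure D3:**
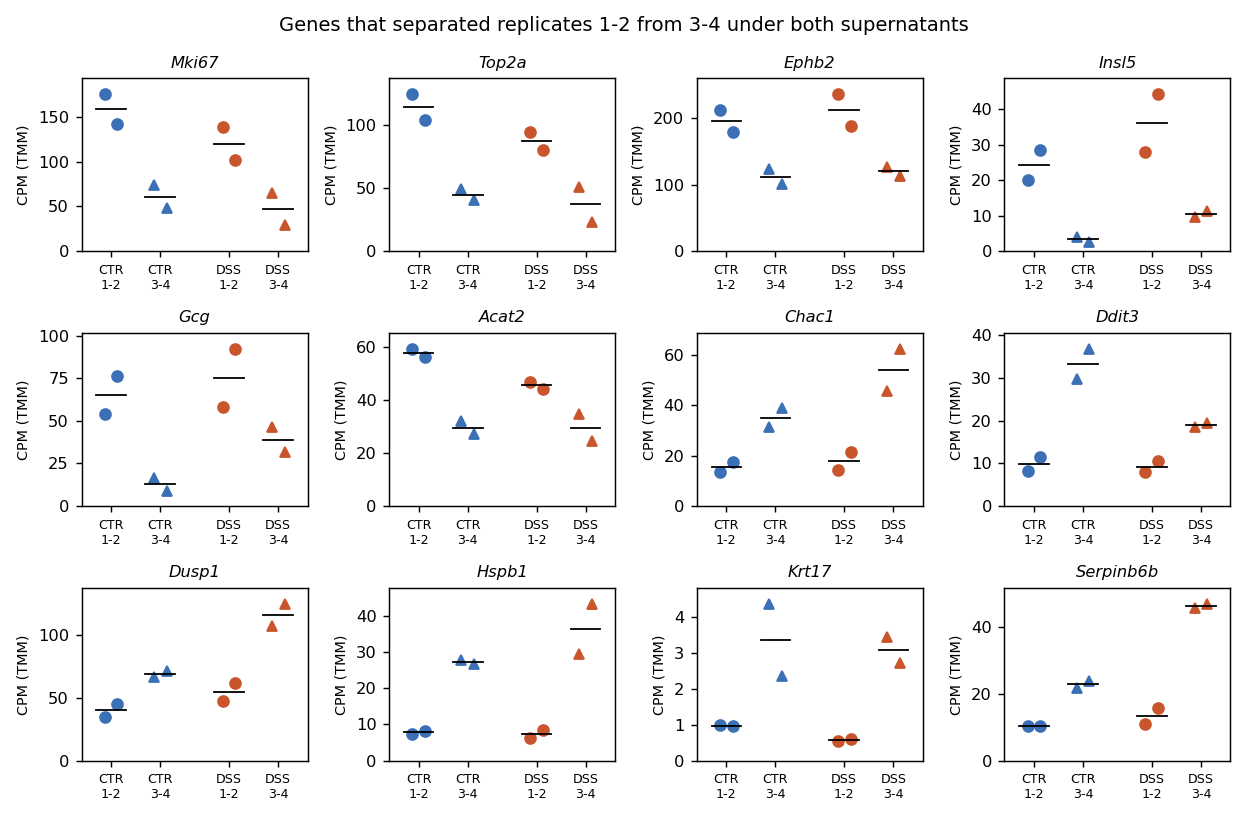
CPM of 12 genes in each library, with blue for FS_CTR, orange for FS_DSS, circles for replicates 1 and 2, triangles for replicates 3 and 4, and a line at the mean of each pair of libraries. In every panel the 4 triangles lie on one side of the 4 circles, as in *Insl5*, where the triangles reach at most 11.4 CPM and the circles at least 20.1 CPM.

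Lipid synthesis genes were lower, by less. All 25 genes of the cholesterol and sterol list had a negative Log2(FC), and 16 were lower without overlap, against 8.12% of all genes. The list's median was -0.34 (-0.35 under FS_CTR and -0.41 under FS_DSS). *Acat2*, a cytosolic thiolase at the start of the pathway, had 59.4, 56.3, 32.1 and 27.1 CPM in FS_CTR 1 to 4 and 47, 44.2, 34.7 and 24.5 CPM in FS_DSS 1 to 4. *Lss*, lanosterol synthase, had 116, 115, 79.3 and 80.5 CPM under FS_CTR and 114, 111, 80.5 and 62.6 CPM under FS_DSS. Both separated the sets (Log2(FC) of -0.79 and -0.60), as did *Srebf2* (-0.52), the transcription factor that regulates the pathway. Of 17 fatty acid synthesis genes 3 were lower and 1 higher, the latter *Me1*, the malic enzyme that makes NADPH. Of 35 fat oxidation and PPAR genes 9 were lower and 1 higher without overlap. For both lists the shares of all genes were 8.12% lower and 7.17% higher. *Cpt1a*, which admits fatty acids to mitochondria, had 151, 155, 119 and 108 CPM under FS_CTR and 161, 133, 119.9 and 115 CPM under FS_DSS. *Adh1*, an alcohol dehydrogenase that also acts on retinol, had 60.2, 40.1, 7.24 and 8.13 CPM in FS_CTR 1 to 4 and 20.3, 23.1, 10.2 and 9.49 CPM in FS_DSS 1 to 4. *Cyp1b1*, a target of the aryl hydrocarbon receptor, had 22.9, 24.4, 11.1 and 12.9 CPM and 55.7, 43.98, 18.6 and 9.07 CPM, so its highest values were those of FS_DSS 1 and 2. In all, 8 of 61 detoxification genes were lower and 4 higher without overlap, against 8.12% and 7.17% of all genes, so the count sets the list little apart.

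Genes that ATF4 induces, or that act with it, were higher in 13 of 26 members without overlap and lower in 0, against 7.17% of all genes. Their median Log2(FC) was 0.49, with 0.35 under FS_CTR and 0.64 under FS_DSS. Within FS_DSS alone 22 of the 26 were higher without overlap, against 26.3% of all genes. The promoters of *Chac1*, an enzyme that breaks down glutathione, and *Atf3*, a stress-induced factor of the AP-1 family, are shown because both genes were higher in every library of replicates 3 and 4. Capitals mark matches on either strand to TGATGNAA, the amino acid response element to which ATF4 binds with a C/EBP partner. The RefSeq stretches of GRCm38.p6 are chr2:119350992-119351291 on the plus strand and chr1:191183284-191183583 on the minus strand.
Chac1: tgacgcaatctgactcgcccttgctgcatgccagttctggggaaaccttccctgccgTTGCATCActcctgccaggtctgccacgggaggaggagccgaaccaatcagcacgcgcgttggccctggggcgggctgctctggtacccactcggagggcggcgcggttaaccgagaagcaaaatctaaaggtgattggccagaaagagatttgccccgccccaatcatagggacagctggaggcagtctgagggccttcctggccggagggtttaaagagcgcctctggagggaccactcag
Atf3: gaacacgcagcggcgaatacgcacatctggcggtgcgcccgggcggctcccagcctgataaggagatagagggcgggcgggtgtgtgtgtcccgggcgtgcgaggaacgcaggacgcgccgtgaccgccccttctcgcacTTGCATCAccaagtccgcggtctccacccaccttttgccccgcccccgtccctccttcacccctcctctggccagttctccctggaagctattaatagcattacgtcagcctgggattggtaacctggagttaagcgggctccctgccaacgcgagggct
Of 26 genes of the list 23 matched a promoter, and 7 of the 23 held the motif, against 4.06% of all promoters. Those 7 were *Trib3*, *Chac1*, *Asns*, *Slc7a11*, *Atf3*, *Nupr1* and *Pck2*, and 4 of them (*Trib3*, *Chac1*, *Atf3* and *Nupr1*) were among the 13 higher without overlap.

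*Chac1* (chr2:119180757-119184866, GRCm39) had 13.3, 17.5, 31.3 and 38.8 CPM in FS_CTR 1 to 4 and 14.2, 21.4, 45.5 and 62.4 CPM in FS_DSS 1 to 4, with means of 16.6 ± 3.69 and 44.5 ± 13.3 CPM (SD, n = 4) in the sets and a Log2(FC) of 1.40. *Ddit3* (chr10:127124268-127132163) had 8.12, 11.6, 29.8 and 36.8 CPM under FS_CTR and 7.88, 10.6, 18.5 and 19.4 CPM under FS_DSS (Log2(FC) 1.40). *Atf3* had 19.4, 19.9, 32.8 and 34.5 CPM and 15.99, 22.4, 50.7 and 65.1 CPM, and its highest values were those of FS_DSS 3 and 4. *Nupr1*, a stress-induced chromatin protein, had 151, 181, 515 and 611 CPM and 131, 185, 237 and 269 CPM, and its highest values were those of FS_CTR 3 and 4. Between conditions, over all 8 libraries, neither passed edgeR's test (adjusted *p* = 0.456 for *Atf3* and 0.293 for *Nupr1*). *Atf4* itself was higher by 0.51, as were *Phgdh* (0.74) and *Psph* (0.67) of serine synthesis and *Mthfd2* (0.76) of mitochondrial folate metabolism. The amino acid transporters *Slc7a5* and *Slc7a11* overlapped between the sets (Log2(FC) of 0.02 and 0.00), with negative differences under FS_CTR (-0.56 and -0.53) and positive ones under FS_DSS (0.58 and 0.52). Genes of the endoplasmic reticulum unfolded protein response did not share this direction, with a median of -0.13. Without overlap 0 of 25 were higher and 1 lower, against 7.17% and 8.12% of all genes.

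Small heat shock proteins had some of the largest positive differences. *Hspb1* (HSP27, chr5:135916760-135918417), a chaperone of the actin skeleton, had 7.48, 8.28, 27.7 and 26.6 CPM in FS_CTR 1 to 4 and 6.24, 8.57, 29.3 and 43.3 CPM in FS_DSS 1 to 4, a Log2(FC) of 2.04. *Hspb8* and *Cryab*, related chaperones, were scarcer, with 0.856, 0.887, 2.14 and 2.797 CPM and 0.335, 0.591, 3.83 and 4.81 CPM for *Hspb8* and 1.11, 0.887, 3.21 and 3.25 CPM and 0.6705, 1.58, 5.098 and 6.68 CPM for *Cryab*. None of the 3 overlapped between the sets. The larger chaperones differed less, with Log2(FC) of 0.03 for *Hspa8* and -0.04 for *Hsp90ab1*. In the heat shock list 3 of 18 genes (*Hspb1*, *Hspb8* and *Hspa1a*) were higher without overlap, against 7.17% of all genes. Of 26 AP-1 and immediate early genes, 7 were higher without overlap and 0 lower (median 0.27), against 7.17% and 8.12% of all genes. *Dusp1*, a phosphatase that limits MAP kinase signals, had 34.8, 45.6, 66.8 and 71.8 CPM in FS_CTR 1 to 4 and 47.5, 62.1, 107 and 125 CPM in FS_DSS 1 to 4. *Fos*, *Jun* and *Egr1*, the best known of these genes, overlapped between the sets, with Log2(FC) of 0.06, 0.05 and -0.34. Of 30 p53 targets and apoptosis genes 7 were higher and 0 lower without overlap, against 7.17% and 8.12% of all genes, with a median of 0.16. *Phlda3*, which restrains AKT, had 51.4, 63.4, 98.8 and 109 CPM under FS_CTR and 59.7, 63.6, 86.5 and 101 CPM under FS_DSS, and *Pmaip1* (NOXA), a pro-apoptotic BH3 protein, had 61.6, 62.4, 87.3 and 91.5 CPM and 68.7, 79.98, 130.2 and 140.3 CPM. *Cdkn1a* (p21), which halts the cell cycle, and *Mdm2*, which degrades p53, were higher by 0.38 and 0.48.

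Barrier and wound-associated genes were mixed. *Krt17*, a keratin of injured skin, had 0.983, 0.952, 4.36 and 2.34 CPM in FS_CTR 1 to 4 and 0.536, 0.591, 3.44 and 2.71 CPM in FS_DSS 1 to 4, and *Cldn1*, a claudin of tight junctions, had 0.476, 0.526, 6.26 and 4.29 CPM and 0.201, 0.492, 1.56 and 1.48 CPM. Both were low and both separated the sets. Among 24 squamous and keratin genes, *Krt17* was 1 of 5 higher without overlap. In that list 0 were lower, and the shares of all genes were 7.17% and 8.12%. *Serpinb6b*, an intracellular inhibitor of serine proteases, had 10.3, 10.5, 21.8 and 23.8 CPM under FS_CTR and 10.9, 15.7, 45.5 and 46.8 CPM under FS_DSS, highest in FS_DSS 3 and 4. *Lama5*, a laminin chain of the basement membrane, had 269, 231, 374 and 383 CPM and 338, 254, 409 and 546 CPM. *Timp3*, a matrix-bound inhibitor of metalloproteases, was lower, with 14.7, 6.67, 2.72 and 4.49 CPM and 10.1, 6.27, 2.53 and 2.81 CPM. Among 46 proteases and inhibitors, 6 were higher and 3 lower without overlap, not far from the 7.17% and 8.12% of all genes. *Prl2c3*, of the placental prolactin family, had a Log2(FC) of 2.79, at 5.07, 4.37, 87.1 and 17.5 CPM under FS_CTR and 11.8, 11.4, 46.8 and 57.5 CPM under FS_DSS. Its close paralogs make its counts uncertain. *Slc28a2*, a nucleoside transporter, had 1.55, 1.12, 20.99 and 4.55 CPM and 1.04, 0.853, 2.73 and 2.81 CPM, and *Duoxa2*, the maturation factor of the dual oxidase DUOX2, had 5.33, 4.401, 67.4 and 26.9 CPM and 6.202, 5.32, 9.06 and 12.3 CPM. In these 3 genes FS_CTR 3 was the highest library. *Pappa2*, a protease that releases IGF from its binding proteins, lay on the lower side, with 4.47, 2.99, 0.658 and 0.2602 CPM and 4.49, 2.69, 0.812 and 0.775 CPM.

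Signals of immune defence did not share 1 direction. *Csf3* (G-CSF), a cytokine that draws neutrophils, had 1.93, 2.398, 7.24 and 6.96 CPM in FS_CTR 1 to 4 and 2.51, 3.15, 8.83 and 8.91 CPM in FS_DSS 1 to 4. *Nfkbia*, the inhibitor that NF-kB induces, had 38.6, 41.7, 77.5 and 65.1 CPM and 34.4, 34.9, 52.4 and 49.6 CPM. *Ccl28*, an epithelial chemokine for plasma cells, was lower, with 24.3, 22.1, 10.1 and 8.98 CPM and 20.8, 15.4, 10.2 and 7.97 CPM. Of 31 chemokine, cytokine and NF-kB feedback genes, 6 were higher and 4 lower without overlap, against 7.17% and 8.12% of all genes. Interferon-stimulated genes were higher in 6 of 37 and lower in 0 without overlap, against the same shares of all genes. The list's median was positive within FS_CTR alone, at 0.73 against -0.03 within FS_DSS. *Irf7*, a factor of interferon induction, had 48.6, 52.9, 133 and 182 CPM and 67.7, 75.95, 86.8 and 92.2 CPM, and *Ifit1*, an RNA sensor, had 12.05, 10.7, 29.7 and 34.8 CPM and 16.3, 20.8, 26.2 and 27.7 CPM. *Csf1r*, the CSF1 receptor of macrophages, had 3.74, 3.22, 9.79 and 10.8 CPM under FS_CTR and 3.59, 3.38, 8.898 and 11.9 CPM under FS_DSS and was the only immune cell marker of the 4 that passed the filter to be higher without overlap. Summed over 31 immune cell markers in the table, of which 3 were at 0 in all libraries, the level was 9.81 to 12.6 CPM in replicates 1 and 2 and 17.5 to 20.6 CPM in replicates 3 and 4. The sum over 28 fibroblast markers was 27.9 to 33.5 and 38.3 to 50.9 CPM in the same order, but its members were mixed. Of the 6 that passed the filter, 3 had a positive and 3 a negative Log2(FC). Only *Pdgfrb* separated the sets, and it was lower in replicates 3 and 4 (Log2(FC) -1.33). *Ptprc* stayed at or below 0.823 CPM and *Col1a2* at or below 0.39 CPM, and the part of other cells in the results was not tested.

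**Figure D4:**
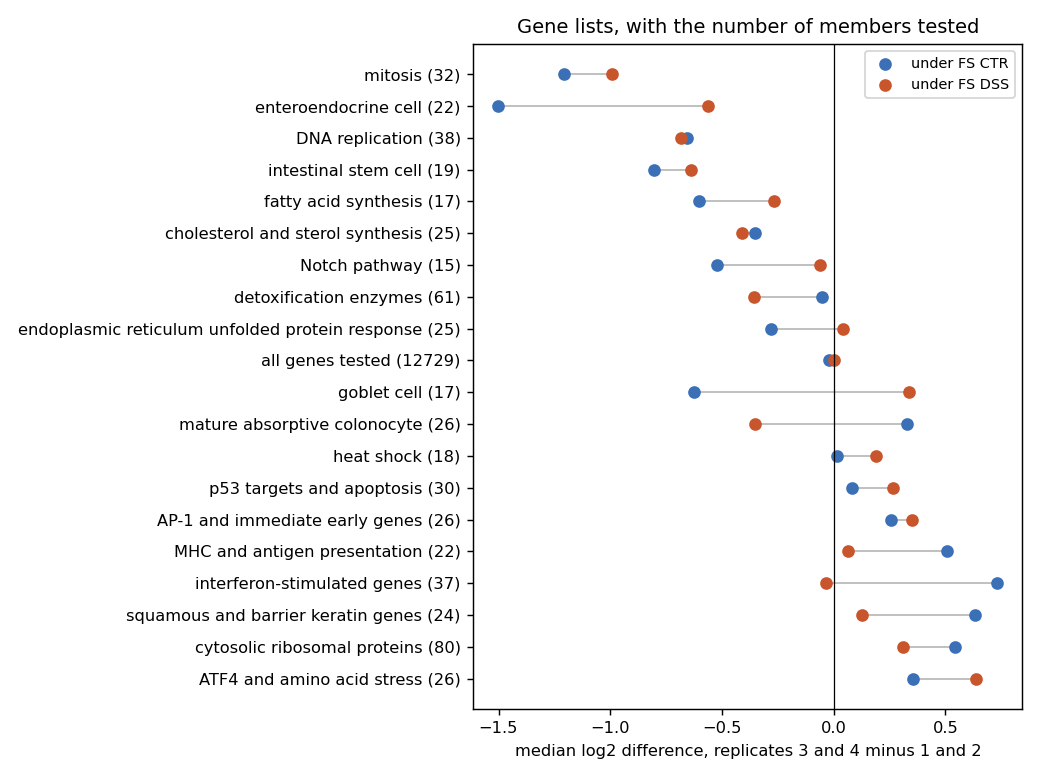
For each gene list on the y axis, with the number of its members tested, points give the median log2 difference of replicates 3 and 4 minus 1 and 2 under FS_CTR (blue) and FS_DSS (orange). Mitosis lies at -1.21 and -0.99, the ATF4 list at 0.35 and 0.64, and goblet and colonocyte genes on opposite sides of 0 under the 2 supernatants.

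The interaction asked whether the step from replicates 1 and 2 to 3 and 4 was alike under both supernatants. The medians of mitosis, DNA replication, stem cell, enteroendocrine, sterol and ATF4 genes had 1 sign under both, while those of mitochondrially encoded, goblet and colonocyte genes did not. Among all genes, 2862 (22.5%) had both FS_CTR 3 and 4 above the other 6 libraries and 2669 (21%) had both below. With an interaction of at least 1 in size as well, 519 genes (4.08%) were more positive under FS_CTR and 335 (2.63%) more negative. On library totals alone these 2 counts were 91 and 4277. In FS_CTR 3 and 4, 9 genes were listed at 0 in both libraries while at 2 CPM or more in the other 6, and in the other same-condition pairs (FS_CTR 1 and 2, FS_DSS 1 and 2, FS_DSS 3 and 4) there were 0 such genes.

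All 13 mitochondrially encoded protein genes were above the other 6 libraries in FS_CTR 3 and 4, and all 13 were lower in FS_DSS 3 and 4 than in FS_DSS 1 and 2. Their median log2 difference was 3.54 under FS_CTR and -0.73 under FS_DSS. *mt-Co1*, a subunit of cytochrome oxidase, held 2.41%, 3.19%, 15.9% and 12.3% of the counts in FS_CTR 1 to 4 and 3.05%, 2.31%, 1.72% and 1.23% in FS_DSS 1 to 4. Nuclear copies of mitochondrial DNA carry near-identical sequence, so single members are uncertain. The 73 nuclear genes of oxidative phosphorylation differed far less, with medians of 0.28 and -0.02, although 45 of them also had FS_CTR 3 and 4 above the other 6. Cytosolic ribosomal protein genes were above the other 6 in 70 of 80 cases. Of all genes 22.5% had FS_CTR 3 and 4 above the other 6. Within FS_DSS 41 of 80 ribosomal protein genes were higher without overlap, against 26.3% of all genes, and their medians under FS_CTR and FS_DSS were 0.54 and 0.31.

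*Pla2g4c* (chr7:13058496-13094597), a cytosolic phospholipase A2, had 0.919, 1.54, 516 and 298 CPM in FS_CTR 1 to 4 and 1.01, 0.558, 0.422 and 0.355 CPM in FS_DSS 1 to 4. Outside FS_CTR 3 and 4 it did not exceed 1.54 CPM. *Gsdmc4* (chr15:63763113-63784146), of the pore-forming gasdermin C family, had 55.8, 56.5, 949.7 and 856 CPM under FS_CTR and 44.99, 41.2, 39.3 and 25.8 CPM under FS_DSS. Its neighbours *Gsdmc2* and *Gsdmc3* gave the same picture, with 2206 and 1727 CPM for *Gsdmc2* in FS_CTR 3 and 4 against at most 105 CPM elsewhere, and reads can be shared between these paralogs. On the negative side, *Prkaa1*, the catalytic subunit of AMP-activated kinase, was listed at 0 in FS_CTR 3 and 4 and had 11.03 and 15.2 CPM in FS_CTR 1 and 2 and 22.02, 19.7, 29.03 and 35.9 CPM in FS_DSS 1 to 4. *Rnf40*, a histone ubiquitin ligase, was also listed at 0 in that pair, against 17.3 to 29.99 CPM in the other 6. *Srrt*, *Morc3*, *Srp54a* and *Rfc1* were listed at 0 in the same pair. Their interaction values depend on the prior count and are no bound.

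**Figure D5:**
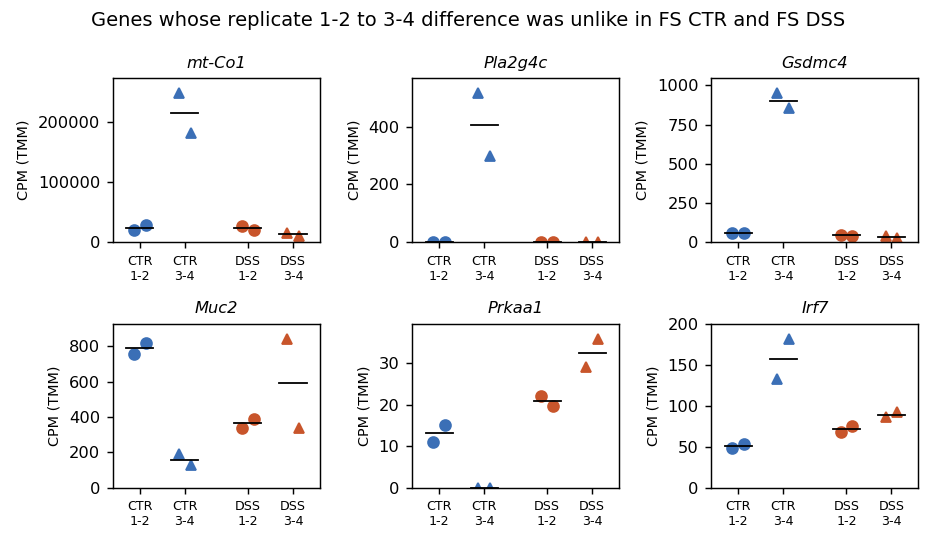
CPM of 6 genes in each library, with blue for FS_CTR, orange for FS_DSS, circles for replicates 1 and 2, triangles for replicates 3 and 4, and a line at the mean of each pair. *Pla2g4c* reaches 516 and 298 CPM in FS_CTR 3 and 4, and *Prkaa1* is listed at 0 there.

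Goblet cell genes had median log2 differences of -0.62 under FS_CTR and 0.34 under FS_DSS over 17 genes. Under FS_CTR 9 were lower and 4 higher without overlap, where 4665 and 4445 of all 12729 genes were. Under FS_DSS 5 were higher, near the 26.3% of all genes that were higher there, and 0 lower, against 27.6% of all genes. Their summed level was 2261, 2328, 1342 and 1286 CPM in FS_CTR 1 to 4 and 1589, 1633, 2876 and 1722 CPM in FS_DSS 1 to 4, so FS_DSS 3 was the 1 high library of its condition. *Muc2*, the main mucin of the colon, had 758, 819.5, 188 and 130.4 CPM in FS_CTR 1 to 4 and 338, 391, 840.5 and 338 CPM in FS_DSS 1 to 4. FS_DSS 3 stood alone at the level of FS_CTR 1 and 2, so the FS_DSS difference of *Muc2* rests on 1 library. *Spink4*, a secreted inhibitor of goblet cells, showed the same library apart, at 151, 101, 79.8 and 43.4 CPM and 35, 20.6, 129.7 and 26.1 CPM. *Clca1*, a mucus-processing protease, was the 1 goblet gene higher without overlap under both supernatants, at 11.8, 11.1, 23.1 and 22.96 CPM and 9.96, 9.19, 28.2 and 26.5 CPM. Colonocyte genes had medians of 0.33 under FS_CTR and -0.35 under FS_DSS over 26 genes. Within FS_DSS 21 of 26 were lower without overlap and 0 higher, against 27.6% and 26.3% of all genes. *Slc26a3*, the chloride and bicarbonate exchanger of the colon surface, had 100.2, 112, 119.9 and 117 CPM and 94.7, 84.8, 42.6 and 29.99 CPM. *Sis*, a sugar-digesting enzyme of the small intestine, was lower under both, at 88.4, 76.1, 22.1 and 19.6 CPM and 78.95, 66.4, 44.8 and 30.5 CPM, and *Ada*, adenosine deaminase, was higher under both, at 45.4, 28.5, 112 and 118 CPM and 43.6, 33.5, 61.9 and 63.1 CPM.

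Gene length moved with the division. Genes were divided by their longest transcript into 4 groups of equal size. In the shortest group (126 to 2983 bases), the median log2 difference was 0.19 under FS_CTR and 0.06 under FS_DSS, and in the longest (5911 to 28591 bases) it was -0.19 and -0.06. In the shortest group 38.2% of genes had FS_CTR 3 and 4 above the other 6 libraries, and in the longest group 9.59%. Lengths came from GENCODE vM39 and were found for 92.6% of genes tested. The mitosis genes had a median longest transcript of 3803 bases, and the ribosomal protein genes one of 1949 bases, within the range of the shortest group. The part of length or of the mitochondrial share in the results was not tested.

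FS_DSS and FS_CTR were then compared in a fit with condition as its only term, which does not use the replicate sets. At an unadjusted *p* under 0.05 and a Log2(FC) of at least 0.58 in size, edgeR's quasi-likelihood test found 326 genes (2.56%) higher and 822 (6.46%) lower under FS_DSS. After Benjamini-Hochberg adjustment 0 genes passed in either direction. Without adjustment and without a fold threshold, 1347 passed as higher and 1706 as lower, and DESeq2 called 641 higher and 792 lower at an adjusted *p* under 0.05. On library totals alone the unadjusted counts were 1256 higher and 144 lower. When replicate number was added as a block, edgeR called 68 higher and 179 lower after adjustment. That block was chosen because same-numbered libraries deviated together in these same counts, so its *p* values are to be read with caution. With the replicate set as a second term it called 378 and 499, and those *p* values are too small in that the sets were chosen on the same counts.

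Within replicates 1 and 2 the median log2 difference was 0.42 over the 326 higher genes and -0.55 over the 822 lower ones, and within replicates 3 and 4 it was 1.12 and -1.04. Of the 326 higher genes, 250 were higher without overlap in replicates 1 and 2, where 24% of all genes were, and 318 in replicates 3 and 4, where 35.6% were. Of the 822 lower genes, 576 were lower without overlap in replicates 1 and 2 (26.3% of all genes) and 745 in replicates 3 and 4 (36%). Since these calls were made on all 8 libraries, the counts within a set are no separate check. Whether the sets differed in this was not tested. The opposite sign in replicates 1 and 2 was seen for 5 of the higher and 39 of the lower genes.

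Ribosomal protein genes were lower under FS_DSS in both sets, at medians of -0.62 and -0.84. In that direction 61 of 80 passed the unadjusted threshold, against 6.46% of all genes. The mitochondrially encoded genes all passed it, but their median was -0.03 in replicates 1 and 2 and -4.23 in replicates 3 and 4. *mt-Co1* had a Log2(FC) of -2.72 (standard error 0.83, edgeR adjusted *p* = 0.109) over all 8 libraries, and a log2 difference of -0.02 in replicates 1 and 2. *Gsdmc4* likewise had -3.66 (standard error 0.95, edgeR adjusted *p* = 0.0888) against -0.38 in replicates 1 and 2. Nuclear oxidative phosphorylation genes had medians of -0.33 and -0.66 in the sets, with 29 of 73 lower at the unadjusted threshold (6.46% of all genes). Basement membrane and integrin genes were higher, with 10 of 29 past it as higher (2.56% of all genes) and medians of 0.25 and 0.67. *Itga5*, the fibronectin receptor subunit, had 17.02, 16.8, 19.4 and 19.9 CPM in FS_CTR 1 to 4 and 18.5, 19, 33.8 and 43.6 CPM in FS_DSS 1 to 4, a Log2(FC) of 0.66 (standard error 0.27, edgeR adjusted *p* = 0.185), and its difference lay mainly in replicates 3 and 4. At the unadjusted threshold, 8 of 21 YAP and TAZ targets were higher and 0 lower. Of 46 proteases and inhibitors 13 were higher and 2 lower. The shares of all genes were 2.56% higher and 6.46% lower. Interferon-stimulated genes had a median of 0.48 in replicates 1 and 2, where 27 of 37 were higher under FS_DSS without overlap and 0 lower. Of all genes 24% were higher there and 26.3% lower. In replicates 3 and 4 the interferon median was -0.21, with 3 higher and 14 lower. There 35.6% of all genes were higher and 36% lower, so the 14 were near that share. Mitosis genes were lower under FS_DSS in replicates 1 and 2 in 28 of 32 cases without overlap (median -0.41), against 26.3% of all genes. In replicates 3 and 4 they were lower in 2 of 32 (-0.30), below the 36% of all genes. Over all 8 libraries 1 of the 32 passed the unadjusted threshold as lower, against 6.46% of all genes.

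*Mki67* had a Log2(FC) between conditions of -0.40 (standard error 0.51, edgeR adjusted *p* = 0.643) and *Chac1* of 0.52 (standard error 0.49, adjusted *p* = 0.529). *Insl5* had 0.73 (standard error 0.75, edgeR adjusted *p* = 0.569). *Dusp1*, at 0.65 (standard error 0.34), had an edgeR adjusted *p* of 0.267 in the condition-only fit and 0.0461 once replicate numbers were blocked. It was the 1 of these 4 genes past 0.05 in either of these 2 fits. The block was chosen on these same counts, and what the replicate numbers stand for is not given.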

How the data were processed

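RNA was measured by sequencing in 8 colon organoid libraries, 4 FS_CTR and 4 FS_DSS, grouped by their labels. The authors quantified reads with Salmon (1.10.1) against a GRCm39 mouse transcriptome and imported them with tximport, and their processing notes name DESeq2 (1.36.0). The deposited values were estimated counts per gene symbol, whole numbers as deposited. Transcriptome release and strand setting: not given in the sources used here. All columns were mapped to a sample (0 unmapped).

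The replicate sets, gene lists and named genes were chosen with earlier results of these data known. Genes were named by size of Log2(FC) at a mean of at least 2 CPM (12 each way), by size of the interaction (8 each way) and by list (up to 4 each way). Others were named for their known role, after their values were seen. Some genes are not reported here.

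Counts were filtered with filterByExpr (12729 of 29234 genes kept) and scaled by TMM in edgeR (4.0.16, R 4.3.3). Log2 CPM used a prior count of 2. Set differences came from a fit with condition as a second term, and log2 differences within a condition from its own libraries. Condition was tested with edgeR's quasi-likelihood test, condition only, with Benjamini-Hochberg adjustment. The scripts were tested on simulated data. Same-numbered libraries deviated together (correlations 0.352, 0.221, 0.154 and 0.226, all above 0.1), so the numbers were also fitted as a block. Alternatives were DESeq2 (1.42.0), other scalings, filters and folds, and leaving out libraries. Gene positions and lengths came from GENCODE vM39 (GRCm39), and promoters from RefSeq on GRCm38.p6, used for sequence only and matched by symbol to 9532 genes tested. Totals of 18968416 to 27035243 counts set the counting precision.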

Additional observations from a re-analysis of the deposited data

Results flagged for a closer look

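In 7 results replicates 3 and 4 moved one way under FS_CTR and the opposite way under FS_DSS, in both libraries of each, and these differences were not tested. The number of genes detected per library was lower in FS_CTR 3 and 4 and higher in FS_DSS 3 and 4, a difference of differences of -1070 genes. FS_CTR 3 and 4 were also the libraries with the smallest totals, 18968416 and 22686464 counts, and the part of depth was not tested. The percent of counts in mitochondrially encoded genes had a difference of differences of 32.37 percentage points. The log2 interaction was 9.36 for *Pla2g4c*, 4.41 for *Gsdmc4*, 4.06 for *mt-Co1* and 5.12 for *mt-Co2*. For *Prkaa1*, listed at 0 in FS_CTR 3 and 4, it was -12.07, which depends on the prior count and is no bound.

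A single library stood away from the other 3 of its condition in 3 of 128 groups of 4 looked at. These were *Muc2* in FS_DSS 3 at 840.5 CPM, *Prl2c3* in FS_CTR 3 at 87.07 CPM and *Kdm5d* in FS_DSS 1 at 48.11 CPM. Many named genes were chosen because the replicate sets did not overlap. That choice limits how far a single library can stand alone within its condition. The usual chance rate of about 1 in 20 therefore does not apply, and the number of flags was not compared with chance.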

How the results depend on the processing

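Scaling mattered most. On library totals alone the calls were 64 higher and 538 lower in replicates 3 and 4, 91 more positive and 4277 more negative under FS_CTR, and 1256 higher and 144 lower under FS_DSS, with the median of all genes at -0.39. Without a filter on low counts, 309 genes were lower in replicates 3 and 4 and 531 more negative under FS_CTR, and with at least 10 counts in every library 188 were more negative. At a Log2(FC) of 0.58 the calls were 469 higher, 456 lower, 1202 more positive and 886 more negative. Without FS_CTR 3 and 4 both, a choice added after seeing the data, 363 were higher. At an adjusted *p* under 0.05, 0 genes were called under FS_DSS in either direction by edgeR's condition-only fit.

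Leaving out 1 library at a time gave 221 to 292 genes higher and 185 to 334 lower in replicates 3 and 4, the latter without FS_DSS 3. It gave 480 to 715 genes more positive and 286 to 630 more negative under FS_CTR, the latter without FS_CTR 3. It gave 178 genes higher under FS_DSS without FS_DSS 4 and 614 without FS_CTR 1, and 586 to 1070 lower. With the replicate number as a block, a choice made on these same counts, the fit called 392 genes higher and 776 lower at the unadjusted threshold. After adjustment it called 68 and 179. The cause of these changes was not tested. Of the other counts 76 stayed within 1.5 times the value reported. The medians of mitosis, DNA replication, stem cell, enteroendocrine, sterol and ATF4 genes kept their sign in all alternatives run, while those of goblet, colonocyte, interferon-stimulated and mitochondrially encoded genes did not. With 2 libraries of each condition in each set, overlap of 2 against 2 is a coarse measure at any depth.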
